A study of Homo sapiens with 6 samples.

Results

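The 8 genes described here encode the enzymes that make and break down the polyamines and the proteins that set the amount of their first enzyme. ODC1, AMD1, SRM and SMS are the synthesis enzymes, SAT1 and SMOX act on the finished polyamines, and AZIN1 and OAZ2 control the ODC1 protein. The genes were taken by name. Where several probe sets carry a gene's symbol and no other, the brightest on average stands for the gene and the rest are given beside it. All 8 were measured and all 8 passed the filter on dim genes, out of 19775 genes with such a probe set, of which 13506 passed. Together they have 16 single-symbol probe sets.

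Putrescine, spermidine and spermine are small positively charged amines that bind RNA and DNA and are needed for cell growth. ODC1 makes putrescine from ornithine, and SRM and SMS add aminopropyl groups that AMD1 prepares from S-adenosylmethionine. SAT1 acetylates spermidine and spermine for export or oxidation, and SMOX oxidises spermine back to spermidine. The antizymes, OAZ2 among them, bind ODC1 and send it to the proteasome, and AZIN1, an ODC1 relative without activity, sequesters antizyme. Spermidine also supplies the hypusine residue of the translation factor eIF5A, and in many tumour cells the transcription factor MYC activates ODC1 and other synthesis genes.

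Levels were read on 6 Affymetrix arrays of A375, a human melanoma line that depends on mutant BRAF. In every sample EIF4B, the gene of an RNA-binding cofactor of the initiation helicase, had been knocked out by CRISPR; lentivirus then added either LacZ, giving the knockout line (KO/LacZ), or wild-type eIF4B, giving the rescued line (KO/eIF4B). Both lines received DMSO vehicle, 10 µM vemurafenib (a BRAF inhibitor) for 6 h or 10 µM vemurafenib for 18 h, with 1 array for each combination. The labels give no time for vehicle, do not say whether a line is a clone or a pool, and do not say whether arrays came from separate cultures, so time in culture cannot be told apart from the drug and p-values measure only the spread between these arrays. The arrays measure mRNA per amount of RNA, not enzyme activity or translation. In bulk samples fewer expressing cells and less RNA per cell cannot be told apart.

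A few facts about the arrays bear on all results. Array medians lay between 5.20 and 5.22 (log2). EIF4B differed by -1.68 between the knockout and the rescued line (log2, SE 0.05, limma adjusted p = 0.0056). Of 9 melanocyte lineage markers, 6 had a mean of at least 5, MLANA and TYRP1 lay below it and DCT had no single-symbol probe set. MITF differed from vehicle by 1.01 at 6 h and 1.63 at 18 h, CSPG4 by -0.55 and -0.74, and SOX10 by -0.63 and -0.11, all past the threshold except SOX10 at 18 h. PMEL, TYR and S100B, with means of 5.68, 5.57 and 8.10, passed at neither time. Their differences were 0.02 and -0.12, 0.19 and 0.04, and -0.49 and 0.08. The epithelial markers EPCAM and CDH1, the fibroblast marker COL1A2 and the blood marker PTPRC also lay below a mean of 5. The epithelial markers KRT14 and KRT5 lay above it, with means of 9.72 and 5.74. KRT14 differed from vehicle by 0.51 at 6 h and 1.45 at 18 h, both past the threshold. KRT5 differed by 0.14 and -0.01 and passed at neither time. The blood markers LYZ, HBB and CD3E had means of 6.64, 6.65 and 5.76. LYZ differed by -0.21 and -0.86, the latter past the threshold, and HBB and CD3E passed at neither time. The fibroblast marker COL1A1 had a mean of 7.95, differed by 0.04 and 0.02 and passed at neither time. Some markers of other cell types moved with treatment. The summed level of 4 fibroblast markers was 8.63 and 8.95 under vehicle, 9.11 and 9.31 at 6 h and 9.94 and 10.31 at 18 h (log2, knockout and rescued line), and 2 of the 3 tested, LUM and DCN, rose. The summed level of 4 epithelial markers went from 9.43 and 9.05 under vehicle to 10.85 and 10.32 at 18 h, and that of 4 blood markers from 8.05 and 8.27 to 7.87 and 7.93. Their part in the results below was not tested.

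MYC was among the genes lowered by the drug. In KO/LacZ cells it read 9.27 with vehicle, 7.04 at 6 h and 5.64 at 18 h, and in KO/eIF4B cells 9.18, 7.43 and 6.24 (log2). It fell at both times, with differences of -2.00 and -3.29 from vehicle (SE 0.17 for both; limma adjusted p = 0.0034 and 0.00028). MYC and its partner MAX are known to bind the hexamer CACGTG. The promoters of 6 of the 8 members were therefore searched for it on both strands. The search used 9 RefSeq windows (GRCh38.p14) of 300 bases, from 250 before to 50 after a transcript start. No window of AZIN1 or SMOX was searched. The counts for members below therefore do not cover AZIN1 and SMOX, and do not show whether RefSeq holds windows for them. The hexamer stood in 7.26% of all 35116 windows. Among the members it stood in 1 window of ODC1, with 2 matches, and in the window of SRM, with 1 match. The SRM match begins 199 bases before the start and the ODC1 matches 29 bases before and 5 bases after a start. AMD1, SMS, SAT1, OAZ2 and the other ODC1 window held no match, which says only that these letters are not in those windows. The ETS core CCGGAA, read on both strands, stood in 17.2% of all windows and, among the members, in 1 window each of ODC1, SRM, SAT1 and OAZ2. The ATF4-type sequence TGATGNAA stood in 3.62% of all windows and in none of the 9. No matches overlap in these windows. A match is a description and not a shown binding site.

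The sequences of the synthesis genes are shown because SRM, AMD1 and SMS passed the test as lower at 18 h and ODC1 did not. For ODC1 they are 30 bases around each CACGTG; for SRM and SMS they are the 250 bases before the start, and for AMD1 those before 1 of the starts of its 3 windows. All run 5′ to 3′ on the strand of the gene, and capitals mark CACGTG.
ODC1, chr2:10448024-10448053, minus strand: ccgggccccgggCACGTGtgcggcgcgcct
ODC1, chr2:10447990-10448019, minus strand: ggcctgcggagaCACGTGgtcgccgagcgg
SRM, chr1:11060019-11060268, minus strand: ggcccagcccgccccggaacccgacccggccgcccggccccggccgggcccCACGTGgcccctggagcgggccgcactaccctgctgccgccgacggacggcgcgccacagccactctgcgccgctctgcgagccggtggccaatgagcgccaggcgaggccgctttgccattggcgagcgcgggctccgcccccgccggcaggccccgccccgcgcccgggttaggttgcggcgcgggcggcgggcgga
AMD1, chr6:110874535-110874784, plus strand: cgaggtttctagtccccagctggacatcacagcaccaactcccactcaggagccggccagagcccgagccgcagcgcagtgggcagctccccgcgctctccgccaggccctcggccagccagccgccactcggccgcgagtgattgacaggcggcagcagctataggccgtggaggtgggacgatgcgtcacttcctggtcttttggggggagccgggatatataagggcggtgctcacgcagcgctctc
SMS, chrX:21940459-21940708, plus strand: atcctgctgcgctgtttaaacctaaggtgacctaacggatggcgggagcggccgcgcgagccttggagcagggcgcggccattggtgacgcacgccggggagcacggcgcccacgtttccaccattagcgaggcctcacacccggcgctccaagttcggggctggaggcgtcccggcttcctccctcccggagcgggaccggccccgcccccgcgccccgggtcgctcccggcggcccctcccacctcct

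The drug comparisons ask what vemurafenib changed in both lines. At 18 h the synthesis genes AMD1, SRM and SMS, the spermine oxidase SMOX and the antizyme inhibitor AZIN1 fell, with differences of -0.64 to -0.39 log2 units, and the antizyme OAZ2 rose by 0.26. ODC1 and SAT1 did not pass the test. At 6 h SMOX alone passed, at -0.52. These values come from an additive limma model of line and treatment over all 6 arrays, with Benjamini-Hochberg adjustment over the 13506 genes and a threshold of 0.05, and the error of that model is the disagreement between the lines. Of the 8 members, 6 passed at 18 h, where 51.4% of all genes tested did. Among them 5 fell and 1 rose, where 23.3% of all genes tested fell and 28.1% rose. At 6 h 1 passed, where 16.2% did, and it fell, where 8.82% fell and 7.34% rose; unadjusted, 4 of 8 members and 4420 of 13506 genes had p under 0.05 at 6 h. The members' median difference was -0.17 at 6 h and -0.40 at 18 h, against 0.03 and 0.01 over all genes tested. When each array was centred on the median of its genes, all differences at 18 h were lower by 0.10. The split of all genes at 18 h then went from 3797 higher and 3150 lower to 2980 higher and 4151 lower.

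**Figure D1:**
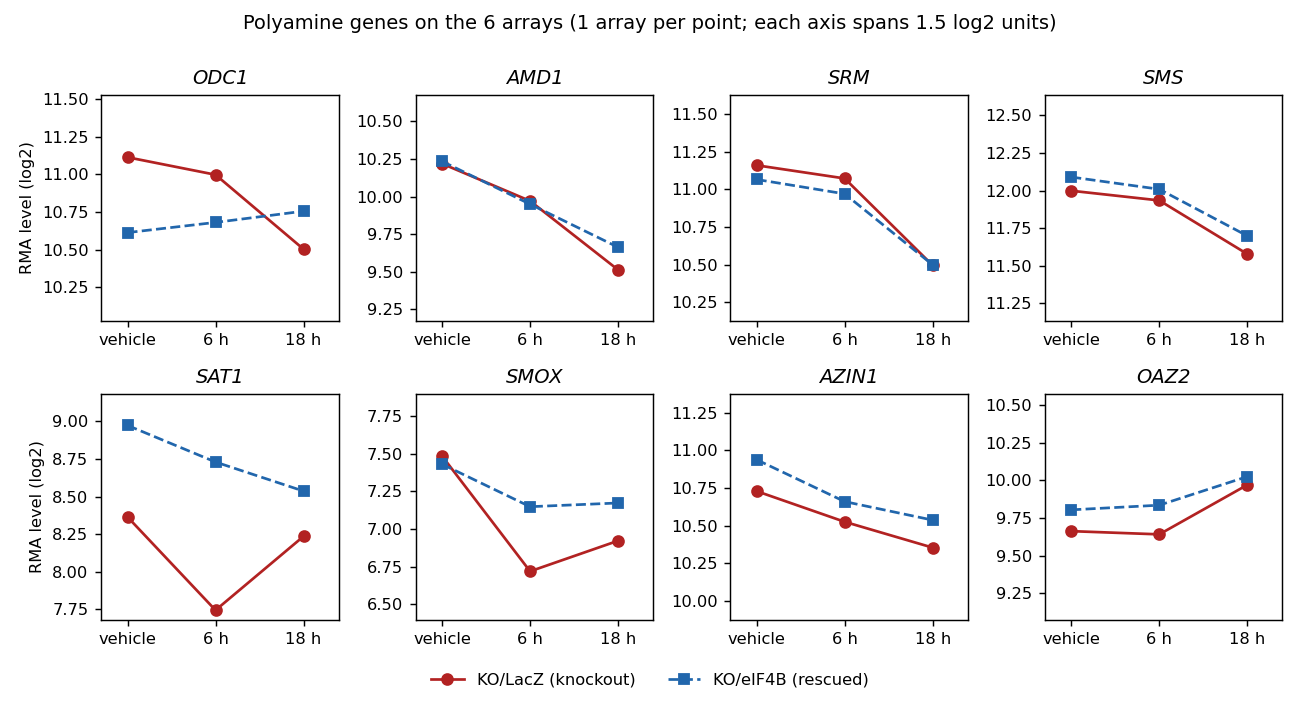
Level of each of the 8 genes (log2 RMA level of the highest-mean probe set, vertical axis) under vehicle, 6 h and 18 h of vemurafenib (horizontal axis) in KO/LacZ (red circles) and KO/eIF4B cells (blue squares); each point is 1 array and each axis spans 1.5 log2 units. AMD1, SRM and SMS run down together in both lines, whereas the ODC1 lines cross and SAT1 dips at 6 h in the knockout line only.

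Among the synthesis enzymes AMD1 and SRM had nearly the same fall at 18 h. AMD1 decarboxylates S-adenosylmethionine and so supplies the aminopropyl groups. Its level in KO/LacZ cells was 10.22 with vehicle, 9.97 at 6 h and 9.51 at 18 h, and in KO/eIF4B cells 10.24, 9.95 and 9.66 (log2). The 3 treatments did not overlap, with both vehicle arrays on top and both 18 h arrays at the bottom, as for 11.3% of all genes tested. At 18 h AMD1 was 1.56-fold below vehicle (log2 difference -0.64, SE 0.07, limma adjusted p = 0.0015). The difference at 6 h was -0.27 (SE 0.07) and missed the threshold (limma adjusted p = 0.062). From 6 h to 18 h AMD1 fell further (-0.37, limma adjusted p = 0.015). That step was lost without the KO/LacZ 6 h array (-0.32, limma adjusted p = 0.11) or without the KO/LacZ 18 h array (-0.30, limma adjusted p = 0.065). A second AMD1 probe set gave -0.24 at 6 h and -0.68 at 18 h, the latter past the threshold over all 24979 probe sets tested (limma adjusted p = 0.0019).

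SRM, which joins an aminopropyl group to putrescine to give spermidine, moved late. SRM read 11.16, 11.07 and 10.50 in KO/LacZ cells and 11.07, 10.97 and 10.50 in KO/eIF4B cells (log2; vehicle, 6 h and 18 h). Both 18 h arrays lay below the 4 others, which themselves spanned 10.97 to 11.16. The fall at 18 h was 1.53-fold (log2 difference -0.62, SE 0.06, limma adjusted p = 0.0013), and the 6 h difference was -0.09 (limma adjusted p = 0.38). Between 6 h and 18 h SRM fell by 0.52 (limma adjusted p = 0.0053), and this step passed whichever single array was left out.

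SMS, the enzyme that converts spermidine to spermine, followed the same order at a smaller size. In the knockout line it read 12.00, 11.93 and 11.58, and in the rescued line 12.09, 12.01 and 11.70 (log2; vehicle, 6 h, 18 h). Again the 18 h arrays lay below the 4 others, an arrangement found for AMD1, SRM and SMS and for 23.8% of all genes tested. SMS fell by 0.41 at 18 h (SE 0.06, limma adjusted p = 0.0036), a 1.32-fold change, and differed by -0.07 at 6 h (limma adjusted p = 0.45). The step from 6 h to 18 h was -0.33 (limma adjusted p = 0.013). Leaving out the KO/LacZ 6 h, KO/LacZ 18 h or KO/eIF4B 6 h array kept its size, at -0.32, -0.31 and -0.35, with limma adjusted p-values of 0.093, 0.057 and 0.058. The 18 h falls of AMD1, SRM and SMS against vehicle passed the threshold in each of the 6 fits that left out 1 array. The highest adjusted p-values in limma were 0.015, 0.014 and 0.041.

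ODC1, the enzyme that commits ornithine to the pathway, did not pass the test in any comparison. In KO/LacZ cells its single probe set read 11.11 with vehicle, 11.00 at 6 h and 10.50 at 18 h. In KO/eIF4B cells the readings were 10.61, 10.68 and 10.76. The knockout line thus started above the rescued line by 0.50 and ended below it, at -0.25. A vehicle level at least 0.5 above the rescued line was found for 1.28% of all genes tested. That limit lies at the value of ODC1 itself, so the share is a description and not a test. Against vehicle the knockout line differed by -0.12 at 6 h and -0.61 at 18 h, and the rescued line by 0.07 and 0.14. Lower at both times in the knockout line and higher at both in the rescued line was an order found for 2.30% of all genes tested. These differences rest on single arrays. The test of a difference in response, by a term shared by both times, gave -0.47 (SE 0.25, 95% interval -1.11 to 0.17, limma adjusted p = 1.0), and the additive difference between the lines was 0.19 (SE 0.15, limma adjusted p = 0.49). The additive model gave -0.02 at 6 h and -0.23 at 18 h (SE 0.18 for both; limma adjusted p = 0.94 and 0.33). The 95% interval at 18 h ran from -0.70 to 0.23, so a fall as large as that of AMD1 lies inside it. Without the KO/eIF4B 18 h array the model gave -0.56 (limma adjusted p = 0.014), and without the KO/LacZ 18 h array 0.10 (limma adjusted p = 0.46).

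**Figure D2:**
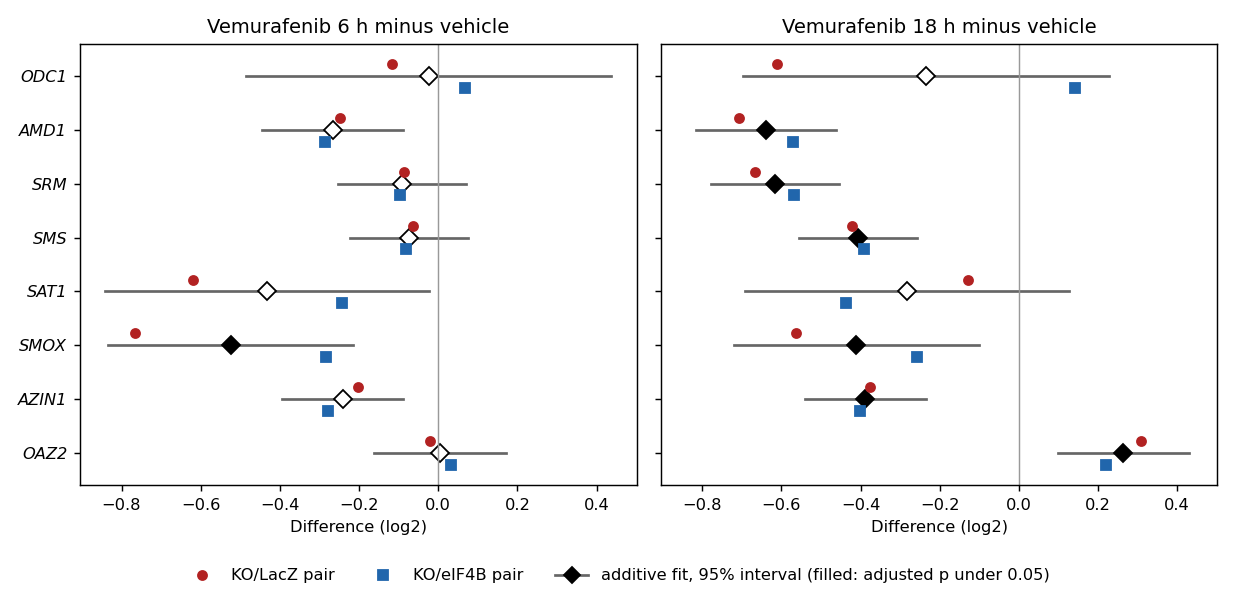
Difference from vehicle at 6 h (left) and 18 h (right) on the log2 scale (horizontal axis) for each gene; red circles and blue squares are the single pairs of arrays of KO/LacZ and KO/eIF4B, diamonds the additive fit with its 95% interval, filled where the adjusted p was under 0.05. At 18 h the filled diamonds run from -0.64 for AMD1 to 0.26 for OAZ2, and the ODC1 pairs lie on opposite sides of 0.

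Of the members that act on finished polyamines, SMOX passed the test against vehicle by its highest-mean probe set and SAT1 did not. SMOX read 7.49, 6.72 and 6.92 in KO/LacZ cells and 7.43, 7.15 and 7.17 in KO/eIF4B cells (log2; vehicle, 6 h, 18 h). All 4 drug arrays lay below both vehicle arrays, as for 18.9% of all genes tested, and the knockout line lay lower than the rescued line at both times. The additive differences were -0.52 at 6 h (SE 0.12, limma adjusted p = 0.046) and -0.41 at 18 h (SE 0.12, limma adjusted p = 0.039). Neither call was firm against the loss of 1 array. The 6 h call held only without the KO/eIF4B vehicle array (limma adjusted p = 0.039) and failed in the other 5 fits, KO/LacZ vehicle (-0.33), KO/LacZ 6 h (-0.36), KO/LacZ 18 h (-0.52), KO/eIF4B 6 h (-0.69) and KO/eIF4B 18 h (-0.52) being left out. The 18 h call failed without the KO/LacZ vehicle array (-0.21), the KO/LacZ 18 h array (-0.38) or the KO/eIF4B 18 h array (-0.44). It also missed the threshold with no filter on dim genes (limma adjusted p = 0.056), as did the 6 h call (limma adjusted p = 0.073). Of the other 2 SMOX probe sets, 1 passed at 18 h (-0.39, limma adjusted p = 0.037) and the dimmest did not (-0.25, limma adjusted p = 0.054).

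SAT1, the acetyltransferase that marks polyamines for removal, had the widest range of the 8 genes, 1.23 log2 units. Its levels were 8.36, 7.74 and 8.24 in KO/LacZ cells and 8.97, 8.73 and 8.54 in KO/eIF4B cells (log2; vehicle, 6 h, 18 h). In the knockout line the lowest level was at 6 h and in the rescued line at 18 h. Against vehicle the additive model gave -0.43 at 6 h (SE 0.16, limma adjusted p = 0.14) and -0.28 at 18 h (SE 0.16, limma adjusted p = 0.20), with 95% intervals of -0.84 to -0.02 and -0.69 to 0.13. Between 6 h and 18 h the lines moved by 0.49 and -0.19. Of the other 2 SAT1 probe sets, 1 passed at 18 h in the fit over probe sets (-0.41, limma adjusted p = 0.040) and the other did not (-0.28, limma adjusted p = 0.16).

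Among the members, the ODC1 regulators AZIN1 and OAZ2 moved in opposite directions at 18 h. AZIN1, which protects ODC1 from antizyme, read 10.73, 10.53 and 10.35 in KO/LacZ cells and 10.94, 10.66 and 10.54 in KO/eIF4B cells (log2; vehicle, 6 h, 18 h). Within each line every step was downward, although the 6 h level of the knockout line lay below the 18 h level of the rescued line. AZIN1 fell by 0.39 at 18 h (SE 0.06, limma adjusted p = 0.0045), and its difference of -0.24 at 6 h missed the threshold (SE 0.06, limma adjusted p = 0.055). The 18 h call was lost without the KO/eIF4B vehicle array (-0.36, limma adjusted p = 0.052). All 3 AZIN1 probe sets passed at 18 h, the others at -0.27 and -0.39 (limma adjusted p = 0.036 and 0.046). The probe set at -0.39 with the adjusted p of 0.046 lay near the filter, with a mean of 5.05 and arrays down to 4.77.

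OAZ2 read 9.66, 9.64 and 9.97 in KO/LacZ cells and 9.80, 9.83 and 10.02 in KO/eIF4B cells (log2; vehicle, 6 h, 18 h). Both 18 h arrays lay above the 4 others, as for 27.2% of all genes tested. The antizyme rose by 0.26 at 18 h (SE 0.07, limma adjusted p = 0.022), a 1.20-fold change, and by 0.26 between 6 h and 18 h (limma adjusted p = 0.035), after a 6 h difference of 0.00 (limma adjusted p = 0.97). With arrays centred on their medians the 18 h difference was 0.16 and no longer passed (limma adjusted p = 0.094), nor did it with a line by drug term in the model (limma adjusted p = 0.055). The call was also lost without the KO/LacZ vehicle (0.26), KO/LacZ 18 h (0.21) or KO/eIF4B vehicle (0.27) array. The step from 6 h to 18 h held only without the KO/eIF4B 18 h array, and without each of the other 5 arrays its limma adjusted p lay between 0.081 and 0.21. It was also lost with centred arrays (0.16, limma adjusted p = 0.12), with no filter on dim genes (limma adjusted p = 0.068) and with the line by drug term (limma adjusted p = 0.082). The other OAZ2 probe set rose by 0.35 at 18 h (limma adjusted p = 0.0068).

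**Figure D3:**
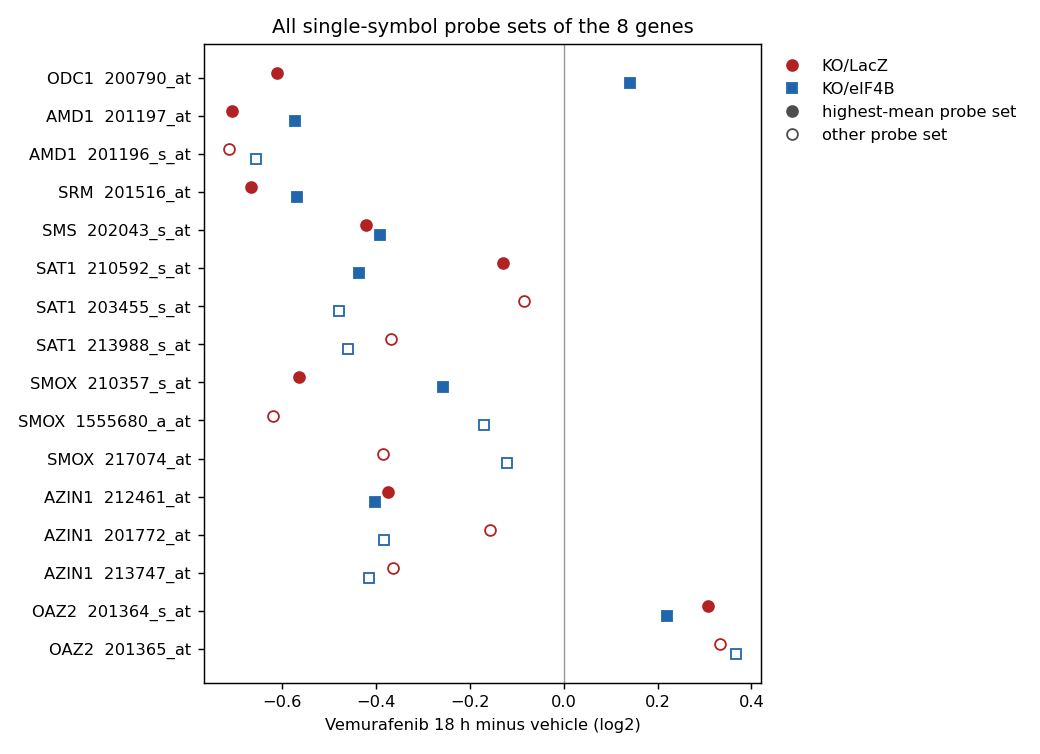
Difference between 18 h of vemurafenib and vehicle (log2, horizontal axis) for all 16 single-symbol probe sets of the 8 genes, in KO/LacZ (red circles) and KO/eIF4B cells (blue squares); filled symbols are the highest-mean probe sets and open ones the others. For 13 probe sets both lines lie below 0, for the 2 of OAZ2 both lie above it, and for ODC1 the lines lie on either side.

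Over all 16 probe sets, 12 passed at 18 h in a fit of the 24979 single-symbol probe sets with a mean of at least 5, where 49.8% of probe sets passed. At 6 h 1 of 16 passed, where 14.6% did. Probe sets of 1 gene read the same RNA and are not independent. From 6 h to 18 h 4 of the 8 genes passed, where 34.0% of all genes tested did. AMD1, SRM and SMS fell and OAZ2 rose, where 14.9% of all genes tested fell and 19.0% rose. The members' median for that step was -0.18, against 0.00 over all genes tested. The 6 h, 18 h and 18 h against 6 h comparisons share arrays.

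The comparison of the lines asks what the absence of added eIF4B changed under all treatments. SAT1 had the largest estimate of the 8 genes. Knockout minus rescued was -0.61 under vehicle, -0.99 at 6 h and -0.30 at 18 h, and its highest knockout array, 8.36, lay below its lowest rescued array, 8.54. In the additive model the difference was -0.63 (SE 0.13, 95% interval -0.97 to -0.30), 1.55-fold, which missed the threshold (limma adjusted p = 0.081). It passed with arrays centred on their medians (-0.67, limma adjusted p = 0.033) and with an intensity trend in the prior variance (limma adjusted p = 0.021), and in the 6 fits that left out 1 array the limma adjusted p lay between 0.10 and 0.20. In the 3 pairs of arrays all 3 SAT1 probe sets, which read the same RNA, were lower in the knockout line, with differences of -0.99 to -0.30. An arrangement with all knockout arrays below all rescued arrays was found for 4.09% of the genes tested, and a difference of -0.3 or lower in all 3 pairs for 0.985%. The limit of -0.3 lies at the smallest difference of SAT1 itself, so the share of 0.985% is a description and not a test.

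For AZIN1 knockout minus rescued was -0.21, -0.13 and -0.18 (log2; vehicle, 6 h, 18 h), and for OAZ2 it was -0.14, -0.19 and -0.06. The additive differences were -0.18 for AZIN1 (SE 0.05, limma adjusted p = 0.13) and -0.13 for OAZ2 (SE 0.05, limma adjusted p = 0.23). AZIN1 passed only with an intensity trend (limma adjusted p = 0.028), and its other probe sets gave -0.09 and -0.01. SMOX differed by 0.05 under vehicle and by -0.43 and -0.25 at 6 h and 18 h. For AMD1, SRM and SMS the 9 differences between the lines lay between -0.15 and 0.10. Their 95% intervals were -0.19 to 0.10, -0.07 to 0.20 and -0.22 to 0.03. By limma 0 of 8 members passed, where 2.50% of all genes tested did, 1.44% higher and 1.06% lower in the knockout line. At an unadjusted limma p under 0.05 there were 2 of 8 members (SAT1 and AZIN1) and 3101 of 13506 genes.

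**Figure D4:**
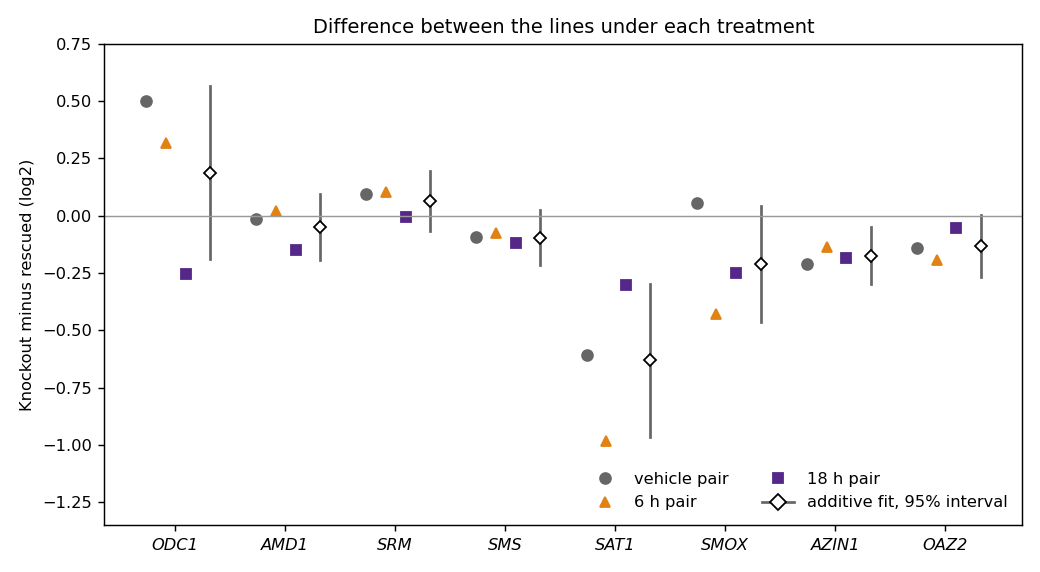
Knockout minus rescued (log2, vertical axis) for each gene under vehicle (circles), 6 h (triangles) and 18 h (squares), each from 1 pair of arrays, with the additive fit and its 95% interval (open diamonds). All SAT1 pairs lie at or below -0.30, and the ODC1 pairs run from 0.50 under vehicle to -0.25 at 18 h.

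Whether the drug response differed between the lines was read from each time alone, with no test, and from a term shared by both times, with 1 residual degree of freedom. ODC1 had the largest difference in response at 18 h, -0.75 (knockout minus rescued), after -0.18 at 6 h. The shared term for ODC1, given with its levels, did not pass. SMOX had -0.48 at 6 h and -0.31 at 18 h, with a shared term of -0.39 (SE 0.16; unadjusted p = 0.049 and adjusted p = 1.0 by limma). SAT1 changed sign, from -0.38 at 6 h to 0.31 at 18 h. For AMD1, SRM, SMS, AZIN1 and OAZ2 the difference lay between -0.13 and 0.09 at both times. At 18 h a size of at least 0.5 was reached by ODC1 alone of the 8 and by 3.71% of all genes tested. At 6 h it was reached by none of the 8 and by 2.09% of genes, and 0.533% of genes reached it in the same direction at both times. The shared term passed for 0 members and 0.00% of genes in limma; at an unadjusted p under 0.05 it was 1 member and 302 of 13506 genes. MYC differed from vehicle at 18 h by -3.64 (knockout line) and -2.94 (rescued line). The part of MYC in the members' differences was not tested.

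Other genes of the pathway were taken from 5 lists of 30 genes, of which 25 were tested. At 6 h 1 rose and 6 fell, where 7.34% of all genes tested rose and 8.82% fell. At 18 h 6 rose and 6 fell, so that 12 of 25 passed, near the 51.4% of all genes that did. The median difference of the 25 was 0.04 at 6 h and -0.07 at 18 h, against 0.03 and 0.01 over all genes. Between 6 h and 18 h 3 rose and 4 fell, where 34.0% of all genes passed. Between the lines 0 of 25 passed in limma, where 2.50% of all genes did. The counts of each list below stand against these same shares, and nothing particular to a list is read from them. Of the calls at 6 h, 18 h and 18 h against 6 h, 3 of 7, 8 of 12 and 3 of 7 held in all 6 fits that left out 1 array.

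Genes that handle S-adenosylmethionine and the by-product of spermidine and spermine synthesis went both ways. MAT2A, which makes S-adenosylmethionine, fell at both times (-0.86 at 6 h and -1.20 at 18 h, limma adjusted p = 0.0077 and 0.00070). MTAP, which splits the by-product methylthioadenosine, fell likewise (-0.76 and -0.86, limma adjusted p = 0.0049 and 0.00080). ENOPH1, a later enzyme of the same salvage route, fell by 0.58 at 18 h and passed there (limma adjusted p = 0.0015). MAT2B, the regulatory partner of MAT2A, rose by 0.34 at 18 h and ADI1, also of the salvage route, rose by 0.31 (limma adjusted p = 0.011 and 0.010). The MAT2B call was lost without the KO/LacZ vehicle or KO/LacZ 18 h array and the ADI1 call without either vehicle array. In this list of 7 genes 0 rose and 2 fell at 6 h, and 2 rose and 3 fell at 18 h, where 16.2% and 51.4% of all genes passed. ENOPH1 alone passed from 6 h to 18 h (-0.45, limma adjusted p = 0.0072), though not without the KO/LacZ 6 h array.

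In the hypusine list 2 of 4 genes fell at both times and 0 rose, where 16.2% of all genes passed at 6 h and 51.4% at 18 h. EIF5A2, the less widely expressed eIF5A gene, fell at both times (-1.03 and -1.07, limma adjusted p = 0.0063 and 0.0012), while EIF5A differed by 0.04 and -0.03. DOHH, which completes hypusine, also fell at both times (-0.27 and -0.78, limma adjusted p = 0.044 and 0.00066). The 6 h call of DOHH was lost when either vehicle array or either 6 h array was left out, and with arrays centred on their medians (limma adjusted p = 0.054). The step of DOHH from 6 h to 18 h was -0.51 (limma adjusted p = 0.0052). DHPS, which starts the modification, differed by -0.08 and -0.07.

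Transport genes went both ways. SLC12A8, a solute carrier, rose by 1.34 at 18 h and GPC1, a proteoglycan linked to polyamine uptake, by 1.07 (limma adjusted p = 0.0013 and 0.00036). SLC12A8 lay near the filter, with a mean of 5.03. Its vehicle and 6 h arrays read 4.37 to 4.92, and its 18 h arrays 5.90 (KO/LacZ) and 5.76 (KO/eIF4B). It passed the filter only through the 18 h arrays, so its calls are no independent support for a rise. GPC1 had already risen by 0.40 at 6 h (limma adjusted p = 0.018). ATP13A2, which exports polyamines from lysosomes, fell at both times (-0.27 and -0.72, limma adjusted p = 0.048 and 0.00085). ATP13A3, a related transporter, fell by 0.39 at 6 h (limma adjusted p = 0.026) and differed by -0.12 at 18 h, and it rose by 0.27 between those times (limma adjusted p = 0.040). SLC18B1, a vesicular polyamine transporter, rose by 0.26 at 18 h (limma adjusted p = 0.026). Of the 7 tested, 1 rose and 2 fell at 6 h, 3 rose and 1 fell at 18 h, and 3 rose and 1 fell between the times. Over all genes 28.1% rose and 23.3% fell at 18 h. The steps from 6 h to 18 h were 1.07 for SLC12A8, 0.66 for GPC1 and -0.45 for ATP13A2. The 6 h calls of GPC1 and ATP13A3 were lost when either vehicle or either 6 h array was left out, and that of ATP13A2 in each of the 6 fits that left out 1 array. Its step from 6 h to 18 h was lost without the KO/LacZ 6 h array. The later rise of ATP13A3 held only without the KO/eIF4B 18 h array among those fits, and with centred arrays it was 0.17 (limma adjusted p = 0.12). The 6 h call of ATP13A2 also missed the threshold with centred arrays (limma adjusted p = 0.063).

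Few relatives of the members and no genes of ornithine supply passed the test against vehicle. AZIN2, a second antizyme inhibitor, rose by 0.31 at 18 h (limma adjusted p = 0.026), the one call of 4 tested relatives against vehicle. OAZ1, the main antizyme, differed by 0.06 and 0.10 at 6 h and 18 h, and the oxidase PAOX by -0.13 and -0.05. OAZ3 fell by 0.23 between 6 h and 18 h (limma adjusted p = 0.037), a call lost in each of the 6 fits that left out 1 array. The 18 h calls of AZIN2 and SLC18B1 were lost without the KO/LacZ vehicle, KO/LacZ 18 h or KO/eIF4B vehicle array. Those of AZIN2, SLC18B1 and ADI1 also missed the threshold with arrays centred on their medians (limma adjusted p = 0.067, 0.13 and 0.054). In the ornithine and arginine list 0 of 3 tested genes passed in any comparison in limma, ARG2 having the largest differences (0.31 at 6 h and 0.43 at 18 h).

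**Figure D5:**
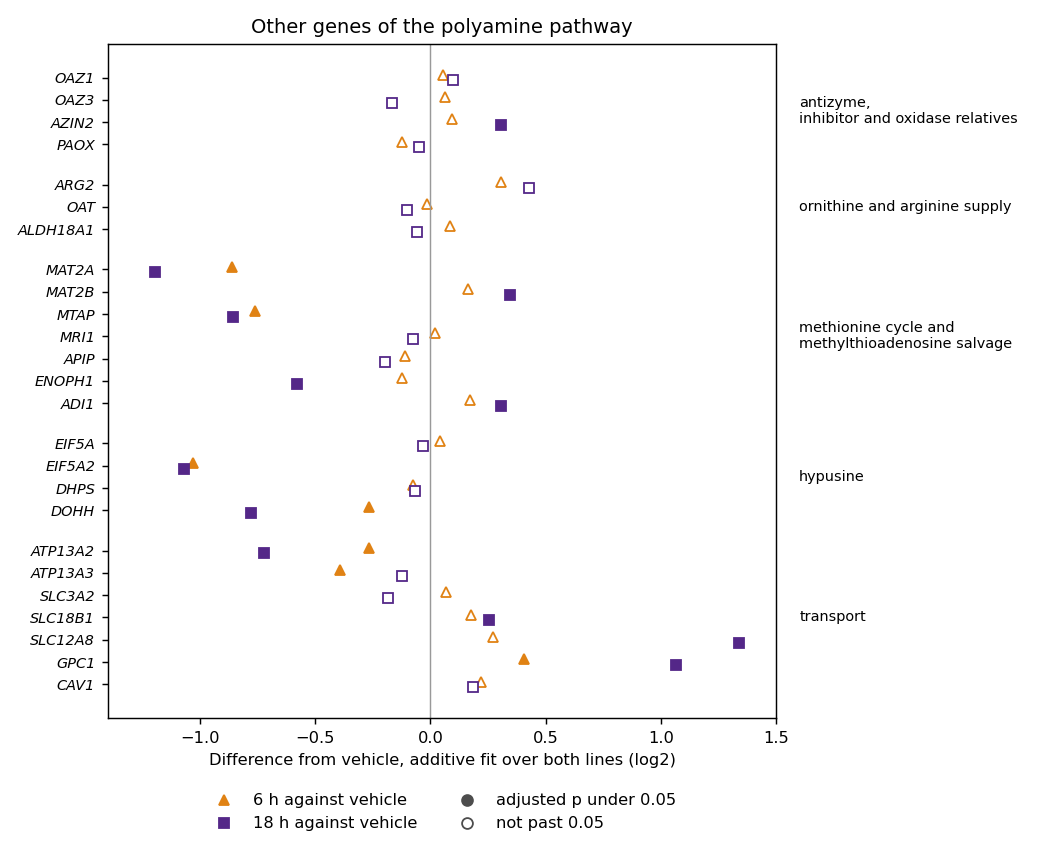
Difference from vehicle at 6 h (triangles) and 18 h (squares) in the additive fit over both lines (log2, horizontal axis) for the 25 tested genes of the 5 pathway lists; filled symbols passed an adjusted p of 0.05. MAT2A, MTAP and EIF5A2 lie far to the left at both times, and SLC12A8 and GPC1 lie to the right at 18 h. SLC12A8 passed the filter on dim genes only through its 18 h arrays.

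For the 3 members with the widest range, the genes with the most similar profiles were found by the root mean square distance between profiles centred on their own means, over the 6 arrays and all tested genes. Closest to AMD1 were AKAP8 and UTP25, at 0.036 and 0.037 log2 units. Closest to SMOX were TGIF1 and SHROOM3, at 0.038 and 0.039. SAT1 had no neighbour as near, its closest being ZNF347 at 0.14 and NLRP11 at 0.15.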

How the data were processed

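The authors' deposited table holds linear-scale intensities from RMA (3.01 to 19000). The submitters' processing notes name RMA and affy, without versions. Since RMA matches the arrays' distributions, a shift of all mRNA together cannot be seen. Values were converted to log2. Of 54675 probe sets, 62 are controls, 41091 carry 1 gene symbol, 1801 carry several and 11721 are unnamed here; 41037 matched RefSeq gene identifiers, and 0 symbols changed. Each gene was represented by its highest-mean probe set, and the 13506 genes averaging 5 or more (log2) entered limma 3.58.1 (R 4.3.3), 1 array per group, in an additive model of line and treatment (2 residual degrees of freedom). A model with a shared line by drug term gave the response difference. Intervals are 95% intervals of these fits. The number of arrays limits the precision. Alternatives changed the filter, probe set summary, prior variance, array centring, an added 16 before log2, or left out 1 array. Leaving out an array of a treatment that is not in a drug comparison leaves that difference unchanged and alters only its error. Such fits are therefore a weaker check of a call. All 8 members and all their probe sets were named; other genes were named by the lists, at most 4 per list and comparison past the threshold, or by profile distance. ADI1 passed at 18 h but lay outside that limit of 4, and was named as well. The limit did not apply to the cell type markers, MYC and EIF4B. EIF5A, DHPS, OAZ1, PAOX, ARG2 and SLC3A2 were named after their values were seen. Members and lists were chosen with earlier results of these data known.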

Additional observations from a re-analysis of the deposited data

Results flagged for a closer look

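ODC1 moved in opposite directions in the lines at both times: lower than vehicle in KO/LacZ (-0.12 at 6 h and -0.61 at 18 h) and higher in KO/eIF4B (0.07 and 0.14), a difference of -0.75 at 18 h. That order of signs, lower at both times in the knockout line and higher at both in the rescued line, was found for 2.30% of all genes tested. The reverse order would have been flagged too and is not in that share. SLC3A2, a chain shared by several amino acid transporters, moved as ODC1 did (-0.03 and -0.45 against 0.16 and 0.08), a difference of -0.53 at 18 h. The difference at a single time was not tested; the terms shared by both times were -0.47 for ODC1 and -0.36 for SLC3A2 (SE 0.25 and 0.19, limma adjusted p = 1.0 for both).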

How the results depend on the processing

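The count of members changed at 6 h, 1, was 0 with no filter on dim genes and with the mean of all probe sets per gene. It was 3 with a filter at a mean of 6, with an intensity trend and with 16 added before log2, AMD1 and AZIN1 joining SMOX. Leaving out 1 array gave 0 to 1 at 6 h, 4 to 6 at 18 h and 1 to 5 from 6 h to 18 h, against 6 and 4 with all arrays. Between the lines 0 members became 2 with an intensity trend and 1 with centred arrays. The response difference gave 0 members in every alternative run; leaving out an array was not run for it, since no residual degree of freedom remains. Over all genes, changed counts at 6 h went from 2182 to 1398 with no filter, 1462 with the line by drug term and 594 to 2530 without 1 array, the counts of 594 to 766 being those without a vehicle or a 6 h array. At 18 h leaving out 1 array gave 4310 to 6563, against 6947, with 4310 and 4630 without the KO/LacZ and KO/eIF4B vehicle arrays. From 6 h to 18 h it gave 1435 to 4252, against 4587, with 1435, 2360 and 2804 without the KO/LacZ 6 h, KO/LacZ 18 h and KO/eIF4B 6 h arrays. Between the lines 337 became 58 with no filter, 513 with the filter at 6, 1169 with a trend, 498 with centring, 541 with 16 added, 166 with the line by drug term and 0 to 50 without 1 array. The response term gave 0 genes, 11 with a trend and 3 with centring.

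Signs turned only where no call stood. With the mean of all probe sets SMOX from 6 h to 18 h was -0.0068, and the response differences of AMD1 and OAZ2 were 0.011 and -0.0079; with centring that of SMS was 0.011. Leaving out 1 array gave ODC1 -0.26 to 0.21 at 6 h, -0.56 to 0.10 at 18 h and -0.54 to 0.12 from 6 h to 18 h, where without the KO/eIF4B 18 h array it passed (limma adjusted p = 0.025). The same gave OAZ2 -0.043 to 0.053 at 6 h, SAT1 -0.12 to 0.41 and SMOX -0.052 to 0.28 from 6 h to 18 h, and AMD1 -0.083 to 0.0028 between the lines. AMD1 passed at 6 h without either 18 h array (limma adjusted p = 0.046). AZIN1 passed from 6 h to 18 h with a trend or centring (limma adjusted p = 0.032 and 0.048). The causes were not tested. Leaving out 1 array kept the sign and side of the threshold for 154 of 192 member values, with 22 calls lost, 4 gained and 12 signs turned; the other alternatives kept 289 of 312. The labels carry no replicate numbers to add as a further block. The additive model already pairs drug and vehicle arrays by line.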
